A study of Homo sapiens with 17 samples.

Results

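Cytokine and growth factor receptors of blood cells were examined in MOLM13, a cell line grown from human acute myeloid leukaemia with an MLL-AF9 fusion. The 10 receptor genes FLT3, KIT, CSF1R, CSF2RA, CSF2RB, CSF3R, IL3RA, IL6R, IL7R and PRLR were taken by name and matched by symbol to Ensembl identifiers. All 10 had a row among the 58278 genes counted in each of the 17 libraries. The RNA came from CRISPR knockout cells in 2 experiments. HOXA9_KO (knockout of HOXA9, 3 libraries) and SAFB_KO (knockout of SAFB, 3 libraries) shared 3 libraries of non-targeting control cells, NT. MEIS1_KO (knockout of MEIS1, 4 libraries) had its own 4 non-targeting libraries, NT_MEIS1ex. Every cell carried MLL-AF9, controls included. The labels do not give the guides, the time after knockout, or whether libraries came from separate cultures or clones, so p-values measure the spread between the libraries as deposited. The design asks which receptor genes change when HOXA9, SAFB or MEIS1 is disrupted.

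A haematopoietic cytokine binds a receptor at the surface of a progenitor and thereby controls its survival, division and maturation. FLT3, KIT and CSF1R are receptor tyrosine kinases of a single family, which phosphorylate themselves. The other receptors of the set have no kinase of their own. They signal through JAK kinases and STAT factors, by their own tail or by that of a partner chain. In this line FLT3 carries an internal tandem duplication that keeps the kinase active. CSF1R and CSF3R are the receptors of monocyte and granulocyte growth factors, and HOXA9 and MEIS1 are homeobox factors that bind DNA together and hold myeloid progenitors immature in leukaemias with MLL fusions.

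Reads assigned to genes ranged over 30.7 to 67.8 M a library in the HOXA9 and SAFB experiment and over 23.3 to 33.2 M in the MEIS1 experiment. Mitochondrial rRNA took 32.0% to 35.5% of them in HOXA9_KO, 24.9% to 27.1% in SAFB_KO and 22.5% to 28.4% in NT, but no more than 0.00941% in the MEIS1 experiment. Reads that HTSeq, the counting program, placed in no feature came to 8.65% to 9.27% in HOXA9_KO and 10.6% to 12.7% in SAFB_KO. They came to 16.4% to 18.1% in NT and to 6.07% to 9.15% in the MEIS1 experiment. Each targeted gene was lower in its knockout. HOXA9 averaged 21.4 CPM in HOXA9_KO and 40.9 CPM in NT, SAFB averaged 20.7 CPM in SAFB_KO and 38.3 CPM in NT, and MEIS1 averaged 11.2 CPM in MEIS1_KO and 32.4 CPM in NT_MEIS1ex. MEIS1 was also lower in HOXA9_KO, by 1.54 on the log2 scale, as much as in its own knockout. CPM here are read counts set to a common library size (counts per M reads) by TMM within an experiment, and a call is an adjusted p under 0.05 over all tested genes with edgeR's quasi-likelihood test, on which all adjusted p-values below rest. Of the 10 myeloid markers, 10 in HOXA9_KO, 9 in SAFB_KO, 9 in NT, 10 in MEIS1_KO and 9 in NT_MEIS1ex averaged at least 1 CPM. Their summed level was 29130 to 32060 CPM in HOXA9_KO and 12810 to 14500 CPM in SAFB_KO, against 4622 to 4754 CPM in NT, and 8597 to 8954 CPM in MEIS1_KO, against 5049 to 6633 CPM in NT_MEIS1ex. Most of each sum was LYZ, the lysozyme gene. The part of these shifts in the receptor results was not tested. In bulk RNA, more cells of a kind and more RNA per cell cannot be told apart.

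Markers of other blood cells were also summed. The 8 erythroid and megakaryocyte markers summed to at most 3.96 CPM and the 5 mast cell and basophil markers to at most 2.86 CPM in any library, with CPA3, a mast cell protease, at 0 throughout. The 11 lymphoid markers summed to 102 to 112 CPM in HOXA9_KO and SAFB_KO and 111 to 115 CPM in NT, and to 157 to 166 CPM in MEIS1_KO and 158 to 170.1 CPM in NT_MEIS1ex. Most of it was NCAM1, an adhesion molecule that leukaemia cells can also carry. TRAC, the T cell receptor alpha constant gene, lay at most at 1.18 CPM in HOXA9_KO, and at 5.86 to 6.35 CPM in SAFB_KO and 11.4 to 11.9 CPM in NT.

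Of the 10 receptors, 8 could be tested against NT in the HOXA9 and SAFB experiment and 9 against NT_MEIS1ex. In HOXA9_KO 6 of 8 were higher, 1 was lower and KIT was not called, where 57.5% of the 18876 tested genes were called, 27.6% higher and 29.9% lower. The median change of the tested receptors was 0.53 on the log2 scale, beside −0.07 over all genes. SAFB_KO had 7 of 8 higher and 1 lower, where 35.5% of tested genes were called (20.2% higher, 15.3% lower), with medians of 0.34 for receptors and −0.02 for all genes. MEIS1_KO had 7 of 9 higher and none lower by the quasi-likelihood test, where 8.81% of the 15744 tested genes were called (4.97% higher, 3.84% lower), with medians of 0.25 and 0.00. Neither of its other 2 receptors, FLT3 and IL3RA, reached an unadjusted p of 0.05, and DESeq2 also called none lower. Knockout and control libraries did not overlap for 7, 8 and 7 of these receptors in HOXA9_KO, SAFB_KO and MEIS1_KO, as was so for 62.6%, 46.3% and 15.7% of all tested genes. The comparisons of HOXA9_KO and SAFB_KO share the NT libraries, so a pattern common to both is not 2 observations. MEIS1_KO and its controls were a separate experiment. A difference between the MEIS1_KO effect and that of another knockout therefore cannot be told apart from a difference between the experiments.

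**Figure D1:**
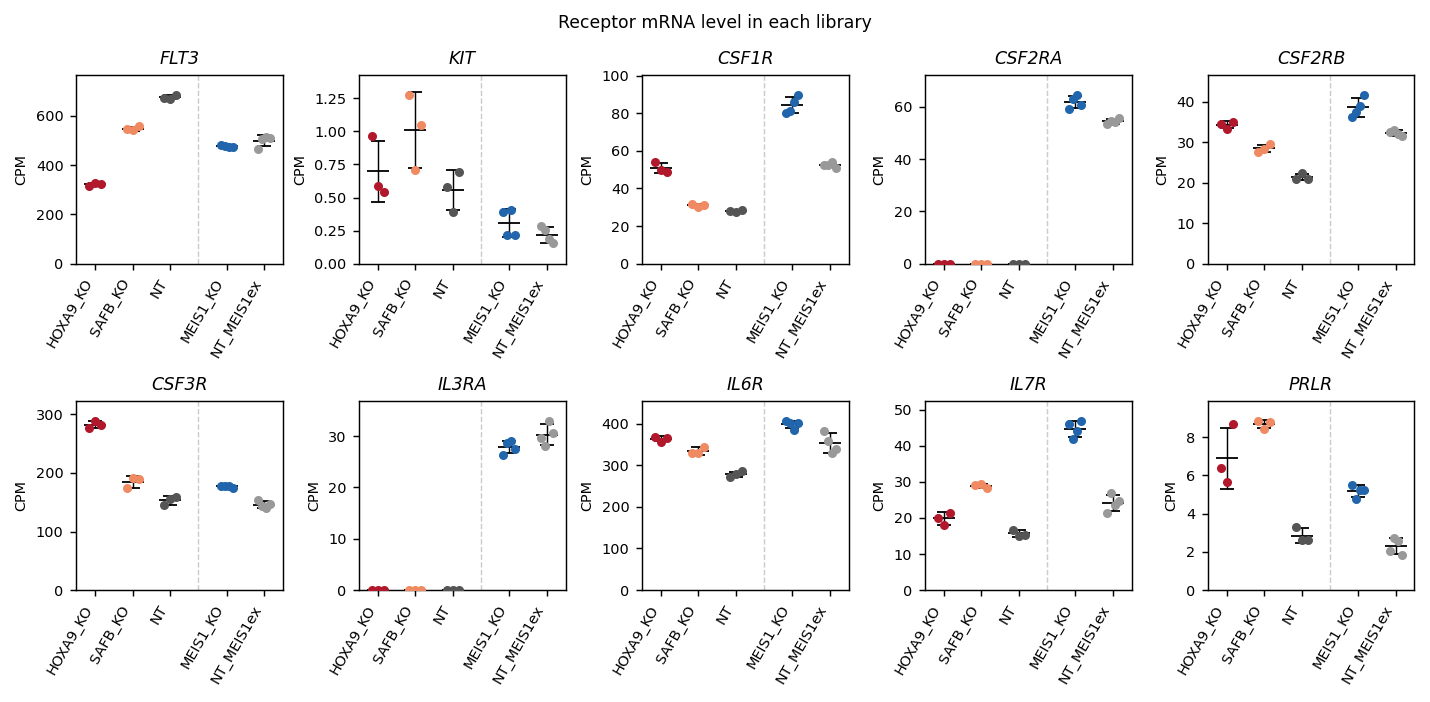
Level of each receptor gene in every library, in CPM on linear axes that start at 0. Points are libraries, the wide bar is the group mean and the whiskers are the SD (n = 3 in HOXA9_KO, SAFB_KO and NT, n = 4 in MEIS1_KO and NT_MEIS1ex), and a dashed line parts the 2 experiments. FLT3 is lower in all 3 HOXA9_KO libraries (315 to 326 CPM) than in NT (668.5 to 685 CPM), whereas CSF1R, CSF2RB, CSF3R, IL6R, IL7R and PRLR are higher, and CSF2RA and IL3RA are listed at 0 in the HOXA9 and SAFB experiment.

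The libraries were scaled by TMM. When the summed counts of nuclear protein-coding genes set the scale instead, the median of all genes moved by −0.25 in HOXA9_KO, −0.14 in SAFB_KO and 0.03 in MEIS1_KO on the log2 scale. The share of calls that were higher was then 23.5% instead of 48% in HOXA9_KO, 23.6% instead of 56.9% in SAFB_KO and 68.5% instead of 56.5% in MEIS1_KO. No receptor changed direction against its controls under that scaling, and 3 calls were lost by it, IL7R in HOXA9_KO and KIT and CSF1R in SAFB_KO.

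Promoters of 5 receptors are shown because the results turn on them. FLT3 is the receptor that fell, CSF1R, CSF3R and PRLR are the 3 with the largest rises in HOXA9_KO, and IL3RA lies where the X and Y chromosomes are identical. They were chosen with the values known. RefSeq promoter windows (GRCh38.p14) were found for 9 of the 10 receptors, and the lines give the part of the 250 bases before a transcription start that is not annotated as UTR, 5′ to 3′ on the gene's strand. Capitals mark letters that match 1 of 5 short motifs searched on both strands, TGATTNAT for PBX-HOX, TGACAG for MEIS, GAGGAAGT for PU.1, TTGCNNAA for C/EBP and TTCNNNGAA for STAT. The last reads as its own kind on both strands. Overlapping matches were allowed. For CSF1R, CSF3R and PRLR the first of 2 RefSeq windows is shown.
FLT3 (chr13:28100593-28100826, minus strand): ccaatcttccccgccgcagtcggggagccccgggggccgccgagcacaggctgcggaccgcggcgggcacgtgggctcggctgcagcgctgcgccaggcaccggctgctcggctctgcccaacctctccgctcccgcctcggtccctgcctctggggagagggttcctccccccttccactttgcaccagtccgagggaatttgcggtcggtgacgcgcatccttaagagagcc
CSF1R (chr5:150113373-150113615, minus strand): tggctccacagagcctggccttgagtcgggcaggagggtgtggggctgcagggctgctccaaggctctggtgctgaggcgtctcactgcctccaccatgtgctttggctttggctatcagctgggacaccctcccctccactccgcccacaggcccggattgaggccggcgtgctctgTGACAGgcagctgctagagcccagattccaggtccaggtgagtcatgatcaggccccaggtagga
CSF3R (chr1:36483315-36483564, minus strand): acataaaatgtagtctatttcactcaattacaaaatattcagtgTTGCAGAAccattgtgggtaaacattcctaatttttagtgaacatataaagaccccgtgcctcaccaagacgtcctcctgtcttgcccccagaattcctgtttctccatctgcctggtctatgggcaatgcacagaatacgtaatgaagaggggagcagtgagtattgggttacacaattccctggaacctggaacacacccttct
PRLR (chr5:35118123-35118372, minus strand): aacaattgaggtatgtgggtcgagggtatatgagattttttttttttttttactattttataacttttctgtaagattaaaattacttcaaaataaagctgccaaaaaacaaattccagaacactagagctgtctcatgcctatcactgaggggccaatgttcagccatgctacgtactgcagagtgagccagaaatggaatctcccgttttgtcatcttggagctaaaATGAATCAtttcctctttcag
IL3RA (chrX:1336535-1336615, plus strand): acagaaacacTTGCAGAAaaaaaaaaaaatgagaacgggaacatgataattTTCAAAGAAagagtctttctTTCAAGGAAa
The FLT3 window held none of the 5 motifs. CSF1R held TGACAG, the letters of the MEIS motif, at −72 to −67 relative to its start, and 13% of 35116 RefSeq promoters hold that motif. CSF3R held TTGCAGAA of the C/EBP motif at −206 to −199 (motif in 9.05% of promoters). PRLR held TGATTCAT of the PBX-HOX motif on the opposite strand, at −21 to −14 (2.48% of promoters), so that it reads ATGAATCA in the line above. In the line shown, IL3RA held TTGCAGAA and a pair of STAT matches, TTCAAAGAA and TTCAAGGAA (6.57% of promoters hold a STAT match). TGACAG of the MEIS motif also lay in the UTR-annotated bases not shown, at −104 to −99 in the IL3RA window and, on the opposite strand, at −26 to −21 in the second CSF3R window. The first windows of KIT, CSF2RA, IL6R and IL7R held none, and neither did the second windows of CSF1R and PRLR. Which of the starts these cells use was not tested. A match says only that these letters are in the window.

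FLT3, the FLT3 ligand receptor of early progenitors (ENSG00000122025.14, GRCh38 chromosome 13, 28003274 to 28100592, minus strand, 26 merged exons), was the receptor that fell. Counted per kilobase of all its annotated exons merged, it was the most abundant receptor in every group. It lay at 315, 326 and 323 CPM in HOXA9_KO, at 544.5, 541 and 557 CPM in SAFB_KO, and at 671, 668.5 and 685 CPM in NT. The 3 groups did not overlap. FLT3 fell by 1.07 ± 0.03 (SE) on the log2 scale in HOXA9_KO (adjusted p 8.9e-34) and by 0.30 ± 0.03 in SAFB_KO (adjusted p 4.2e-12). Between the knockouts it was lower in HOXA9_KO than in SAFB_KO by 0.77 ± 0.03 (adjusted p 4.1e-27). In the MEIS1 experiment it lay at 480, 479, 475 and 475 CPM in MEIS1_KO and at 466, 507, 512 and 509 CPM in NT_MEIS1ex. These groups overlapped through 1 low control library, and the log2 change of −0.06 ± 0.04 was not called (adjusted p 0.424, 95% interval −0.15 to 0.02). Each against its own controls, the loss of FLT3 RNA was larger in HOXA9_KO than in MEIS1_KO, a difference of effects of −0.96 ± 0.06 (adjusted p 4.1e-16). It was also larger in SAFB_KO than in MEIS1_KO, by −0.23 ± 0.06 (adjusted p 0.00356), or −0.40 under protein-coding scaling. These differences span both experiments, so knockout and experiment cannot be told apart in them.

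KIT, the stem cell factor receptor of progenitors and mast cells (ENSG00000157404.15, chromosome 4, 54657918 to 54740715, plus strand), was barely transcribed. Its counts were 29, 19 and 20 in HOXA9_KO, 41, 33 and 37 in SAFB_KO and 43, 20 and 32 in NT, libraries of different depth. In CPM these were 0.961, 0.591 and 0.541 in HOXA9_KO, 1.28, 0.707 and 1.05 in SAFB_KO and 0.582, 0.395 and 0.695 in NT. SAFB_KO lay above NT in all 3 libraries by a narrow gap, and HOXA9_KO overlapped NT. KIT was higher in SAFB_KO by 0.84 ± 0.32 (adjusted p 0.0352). That call was lost without NT replicate 1 (0.88, adjusted p 0.0643) or 2 (0.65, 0.163), without SAFB_KO replicate 1 (0.64, 0.188) or 3 (0.80, 0.0909), with no filter on low counts (0.84, 0.0572) and under protein-coding scaling (0.70, 0.0801). In HOXA9_KO the change was 0.31 ± 0.34 (adjusted p 0.447). With 12, 6, 11 and 5 counts in MEIS1_KO and 8, 7, 5 and 5 in NT_MEIS1ex, KIT did not pass the count filter of the MEIS1 experiment, and no difference was detectable at this depth.

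CSF1R, the receptor of the macrophage growth factor CSF1 and of IL34 (ENSG00000182578.13, chromosome 5, 150053291 to 150113372, minus strand), rose in all 3 knockouts. It lay at 54.0, 49.7 and 48.8 CPM in HOXA9_KO, 31.7, 30.2 and 31.1 CPM in SAFB_KO, and 28.1, 27.3 and 28.6 CPM in NT. HOXA9_KO stood well above both other groups, while SAFB_KO exceeded NT by little. In the other experiment it lay at 80.3, 81.3, 85.9 and 89.8 CPM in MEIS1_KO and at 52.5, 52.6, 53.9 and 50.9 CPM in NT_MEIS1ex, without overlap. The rises were 0.86 ± 0.05 in HOXA9_KO (adjusted p 7.8e-20) and 0.68 ± 0.05 in MEIS1_KO (adjusted p 5.3e-07). In SAFB_KO the rise was 0.14 ± 0.05 (adjusted p 0.0308). It was lost without NT replicate 2 (0.13, adjusted p 0.110), without SAFB_KO replicate 1 (0.13, 0.0919) or 3 (0.14, 0.0814), at a mean of at least 2 CPM (0.09, 0.168) and under protein-coding scaling (0.01, 0.943). CSF1R was the receptor that most clearly set MEIS1_KO apart from SAFB_KO, with an effect lower in SAFB_KO by 0.53 ± 0.07 (adjusted p 2.5e-06). Its effect in HOXA9_KO exceeded that in MEIS1_KO by 0.22 ± 0.07 (adjusted p 0.0157). That difference was lost without HOXA9_KO replicate 1 (0.18, adjusted p 0.05996), with no filter (0.21, 0.0697) and at 2 CPM (0.12, 0.150), and turned to −0.10 under protein-coding scaling (adjusted p 0.234).

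CSF2RB encodes the common beta chain, which carries the signal of GM-CSF, IL3 and IL5 once a ligand-specific alpha chain has bound (ENSG00000100368.13, chromosome 22, 36913628 to 36940449, plus strand). Its level was 34.6, 33.4 and 34.9 CPM in HOXA9_KO, 27.7, 28.2 and 29.5 CPM in SAFB_KO, and 21.0, 22.3 and 21.0 CPM in NT. The order HOXA9_KO, SAFB_KO, NT held with no overlap. It rose by 0.68 ± 0.06 in HOXA9_KO (adjusted p 9.8e-15) and by 0.41 ± 0.06 in SAFB_KO (adjusted p 7.7e-08), and under protein-coding scaling by 0.43 and 0.27. MEIS1_KO had 36.3, 37.3, 38.9 and 41.7 CPM and NT_MEIS1ex had 32.5, 33.1, 32.1 and 31.5 CPM, again apart, with a rise of 0.25 ± 0.06 (adjusted p 0.00978). The effect was larger in HOXA9_KO than in MEIS1_KO by 0.47 ± 0.08 (adjusted p 1.1e-05), a difference not called under protein-coding scaling (0.15, adjusted p 0.119). Between SAFB_KO and MEIS1_KO it was 0.16 ± 0.08 (adjusted p 0.150, 95% interval 0.01 to 0.32 before adjustment).

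The 2 alpha chains of the set, CSF2RA for GM-CSF and IL3RA (CD123) for IL3, could be read in the MEIS1 experiment alone. They lie in the pseudoautosomal region, sequence that X and Y share (CSF2RA, ENSG00000198223.16, chromosome X, 1268800 to 1310381; IL3RA, ENSG00000185291.11, chromosome X, 1336616 to 1382689; both plus strand). Both are listed at 0 in all 9 libraries of the HOXA9 and SAFB experiment, on the X row and on the Y row. There, 2 of 45 X rows of this region held any read, at most 3 reads in a library over all of them. In the MEIS1 experiment 38 of 45 X rows held reads, 51761 to 78572 a library, with all Y rows at 0. The zeros therefore covered the whole region and are no measure of either receptor, so no level or test is given there. RefSeq's promoter windows of both genes are the same on X and Y in 300 of 300 bases.

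CSF2RA lay at 59.1, 62.9, 64.6 and 60.6 CPM in MEIS1_KO and at 53.4, 54.5, 54.0 and 55.6 CPM in NT_MEIS1ex, with every knockout library above every control. It rose by 0.18 ± 0.05 (adjusted p 0.0287). The call was lost without MEIS1_KO replicate 2 (0.17, adjusted p 0.101) or 3 (0.16, 0.123), without NT_MEIS1ex replicate 3 (0.18, 0.0764) and with no filter (0.18, 0.0655). IL3RA lay at 26.4, 28.6, 29.01 and 27.5 CPM in MEIS1_KO and at 29.7, 28.0, 32.9 and 30.5 CPM in NT_MEIS1ex. These ranges overlapped, and the change of −0.12 ± 0.06 was not called (adjusted p 0.270, 95% interval −0.24 to 0.00). Per kilobase, the CSF2RA level was 2.10 ± 0.136 times that of CSF2RB in MEIS1_KO and 2.20 ± 0.0758 times in NT_MEIS1ex, and the IL3RA level 2.12 ± 0.133 and 2.74 ± 0.223 times (SD, n = 4 each). Per length, each alpha chain had more RNA than the common chain in both groups. That length is of all annotated exons merged, 3830 bases for CSF2RA, 1710 for IL3RA and 5000 for CSF2RB. Before division by it, IL3RA averaged less than CSF2RB, 27.9 against 38.6 CPM in MEIS1_KO and 30.3 against 32.3 CPM in NT_MEIS1ex. CSF2RA still stood above CSF2RB, at 61.8 CPM in MEIS1_KO and 54.4 CPM in NT_MEIS1ex.

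CSF3R, the G-CSF receptor of granulocytes and their precursors (ENSG00000119535.17, chromosome 1, 36466043 to 36483278, minus strand), showed the HOXA9_KO rise with the smallest p among the receptors. Its level was 277, 288 and 281 CPM in HOXA9_KO, 174, 191 and 190 CPM in SAFB_KO, and 144, 155 and 160 CPM in NT. HOXA9_KO stood far above the rest, and SAFB_KO lay above NT with no overlap. It rose by 0.88 ± 0.04 in HOXA9_KO (adjusted p 3.0e-25) and by 0.27 ± 0.04 in SAFB_KO (adjusted p 4.7e-08; 0.13 under protein-coding scaling). In MEIS1_KO it lay at 178, 178, 178 and 174 CPM, and in NT_MEIS1ex at 154, 144, 140 and 146 CPM, a rise of 0.28 ± 0.05 (adjusted p 8.2e-04). The effect exceeded that in MEIS1_KO by 0.65 ± 0.07 in HOXA9_KO (adjusted p 4.4e-10; 0.33 under protein-coding scaling). The difference between SAFB_KO and MEIS1_KO was 0.00 ± 0.07 (adjusted p 0.998, 95% interval −0.13 to 0.13).

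IL6R, the alpha chain of the IL6 receptor (ENSG00000160712.12, chromosome 1, 154405193 to 154469450, plus strand), came next to FLT3 per length. It lay at 369, 357 and 366 CPM in HOXA9_KO, 329, 330 and 345 CPM in SAFB_KO and 273, 279 and 285 CPM in NT, with no overlap between groups. The rises were small, 0.39 ± 0.03 in HOXA9_KO (adjusted p 2.5e-15) and 0.26 ± 0.03 in SAFB_KO (adjusted p 1.2e-09), and 0.13 and 0.12 under protein-coding scaling, where both were still called. In MEIS1_KO it lay at 406, 400, 384 and 401 CPM, and in NT_MEIS1ex at 383, 359, 330 and 339 CPM. The lowest MEIS1_KO library was close to the highest control, and the rise of 0.17 ± 0.05 was near the threshold (adjusted p 0.0400). It was lost without MEIS1_KO replicate 1 (0.16, adjusted p 0.101), 2 (0.17, 0.113), 3 (0.19, 0.0779) or 4 (0.17, 0.0836) and without NT_MEIS1ex replicate 3 (0.14, 0.138) or 4 (0.16, 0.105). The effect was larger in HOXA9_KO than in MEIS1_KO by 0.26 ± 0.07 (adjusted p 0.00184), but was −0.07 under protein-coding scaling (adjusted p 0.386).

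IL6ST encodes gp130, the chain that IL6R needs to signal, and was looked up after its values were seen. It lay at 62.0, 65.8 and 66.2 CPM in HOXA9_KO, 50.7, 49.6 and 52.4 CPM in SAFB_KO, and 34.2, 35.3 and 31.1 CPM in NT. Both chains of the IL6 receptor were thus higher in every library of either knockout than in NT. IL6ST rose by 0.95 ± 0.05 in HOXA9_KO (adjusted p 1.4e-22) and by 0.60 ± 0.05 in SAFB_KO (adjusted p 2.1e-14). In MEIS1_KO it rose by 0.32 ± 0.09 (adjusted p 0.0258), a call lost without MEIS1_KO replicate 1 or 2 or NT_MEIS1ex replicate 4 (adjusted p up to 0.0873).

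IL7R, the alpha chain of the IL7 receptor, best known from lymphocytes (ENSG00000168685.14, chromosome 5, 35852695 to 35879603, plus strand), rose most in SAFB_KO and MEIS1_KO. It lay at 20.1, 18.0 and 21.5 CPM in HOXA9_KO, 29.1, 29.3 and 28.3 CPM in SAFB_KO, and 16.8, 15.1 and 15.4 CPM in NT. Here SAFB_KO stood highest and HOXA9_KO between it and NT, whereas HOXA9_KO stood highest for CSF1R, CSF2RB and CSF3R. In the MEIS1 experiment IL7R lay at 46.0, 42.0, 44.0 and 46.9 CPM in MEIS1_KO and at 21.3, 26.9, 23.5 and 24.8 CPM in NT_MEIS1ex, far apart. The rises were 0.87 ± 0.07 in SAFB_KO (adjusted p 1.1e-15), 0.89 ± 0.07 in MEIS1_KO (adjusted p 6.2e-07) and 0.33 ± 0.07 in HOXA9_KO (adjusted p 4.5e-05). Under protein-coding scaling the HOXA9_KO change was 0.08 (adjusted p 0.296). IL7R was lower in HOXA9_KO than in SAFB_KO by 0.54 ± 0.07 on the log2 scale (adjusted p 3.3e-09), and its effect in HOXA9_KO was smaller than in MEIS1_KO by 0.51 ± 0.10 (adjusted p 5.0e-05). The effects in SAFB_KO and MEIS1_KO differed by −0.01 ± 0.10 (adjusted p 0.964, 95% interval −0.20 to 0.18). IL2RG, the common gamma chain that IL7R pairs with, averaged 0.26 CPM in HOXA9_KO, 0.361 CPM in SAFB_KO and 0.737 CPM in NT, and 0.694 CPM in MEIS1_KO and 0.794 CPM in NT_MEIS1ex. Among the lymphoid markers, RAG1 and PAX5 averaged over 1 CPM in NT alone, 1.35 and 1.14 CPM.

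PRLR, the prolactin receptor (ENSG00000113494.16, chromosome 5, 35048756 to 35230589, minus strand), had the largest rise among the 10 receptors in each knockout, at a low level. Its level was 6.37, 5.63 and 8.68 CPM in HOXA9_KO, 8.84, 8.42 and 8.80 CPM in SAFB_KO, and 3.31, 2.65 and 2.61 CPM in NT. Both knockouts lay above NT, and HOXA9_KO replicate 3 stood above the other 2 of its group and within the SAFB_KO range. MEIS1_KO had 5.48, 4.76, 5.24 and 5.21 CPM and NT_MEIS1ex had 2.04, 2.749, 2.57 and 1.83 CPM, without overlap. PRLR rose by 1.26 ± 0.13 in HOXA9_KO (adjusted p 2.3e-11), by 1.58 ± 0.13 in SAFB_KO (adjusted p 3.2e-14) and by 1.18 ± 0.13 in MEIS1_KO (adjusted p 3.0e-05). Neither HOXA9_KO (0.12 ± 0.20, adjusted p 0.652) nor SAFB_KO (0.42 ± 0.20, adjusted p 0.142) differed from MEIS1_KO in its effect beyond the threshold. PRLR was lower in HOXA9_KO than in SAFB_KO by 0.32 ± 0.12 on the log2 scale (adjusted p 0.0316). That call was lost without HOXA9_KO replicate 1 (−0.27, adjusted p 0.131) or 2 (−0.19, 0.263), without SAFB_KO replicate 1 (−0.31, 0.0793), 2 (−0.35, 0.0514) or 3 (−0.30, 0.0941) and with DESeq2 (−0.31, 0.0791). Without HOXA9_KO replicate 3 the difference was −0.53 (adjusted p 0.00107).

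**Figure D2:**
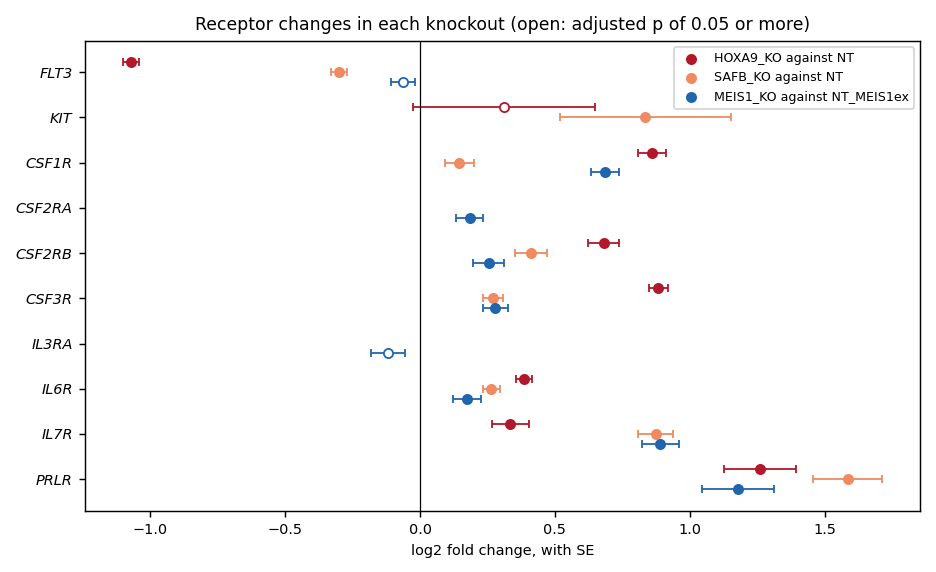
Log2 fold change of each receptor in HOXA9_KO and SAFB_KO against NT and in MEIS1_KO against NT_MEIS1ex, from the edgeR fits, with whiskers of 1 SE. Filled points are called at an adjusted p under 0.05 and open points are not, and receptors that could not be tested have no point. FLT3 lies left of 0 in HOXA9_KO (−1.07) and SAFB_KO (−0.30), and PRLR lies farthest right in each knockout (1.26, 1.58 and 1.18).

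HOXA9_KO and SAFB_KO were also compared with each other, where 4 of 8 receptors were higher and 3 lower in HOXA9_KO and 40.6% of all tested genes were called (20.1% higher, 20.5% lower). The share of calls that were higher was 49.4% by TMM and 29.5% under protein-coding scaling. CSF1R (0.71 ± 0.05), CSF3R (0.61 ± 0.04), CSF2RB (0.27 ± 0.06) and IL6R (0.12 ± 0.03) were higher in HOXA9_KO on the log2 scale, and FLT3, IL7R and PRLR lower. The IL6R call was lost under protein-coding scaling (0.01, adjusted p 0.827), and the CSF2RB difference was then 0.16. KIT, at −0.52 ± 0.33, was not called (adjusted p 0.217).

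The effects of HOXA9_KO and MEIS1_KO differed for 6 of 8 receptors, 4 with a higher and 2 with a lower effect in HOXA9_KO, where 44.2% of 18836 genes were called (24.5% higher, 19.7% lower). The effects of SAFB_KO and MEIS1_KO differed for 2 of 8, FLT3 and CSF1R, both lower in SAFB_KO, and none was higher, where 20.9% of genes were called (12.4% higher, 8.49% lower). DESeq2 gave no higher receptor in that contrast either, and 2 receptors, PRLR and CSF2RB, had a higher effect at an unadjusted p under 0.05 (0.0461 and 0.0497). With protein-coding scaling the higher share of calls was 19.4% instead of 55.5% for HOXA9_KO minus MEIS1_KO and 14.9% instead of 59.3% for SAFB_KO minus MEIS1_KO, and the 4 higher receptors became 1, CSF3R. Differences called under TMM, RLE and protein-coding scaling alike were those of FLT3, CSF3R and IL7R between HOXA9_KO and MEIS1_KO. Between SAFB_KO and MEIS1_KO they were those of FLT3 and CSF1R. All differences in this paragraph span both experiments with separate controls, so knockout and experiment cannot be told apart in them. Mitochondrial rRNA, for one, took 22.5% to 28.4% of assigned reads in NT and at most 0.00075% in NT_MEIS1ex.

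**Figure D3:**
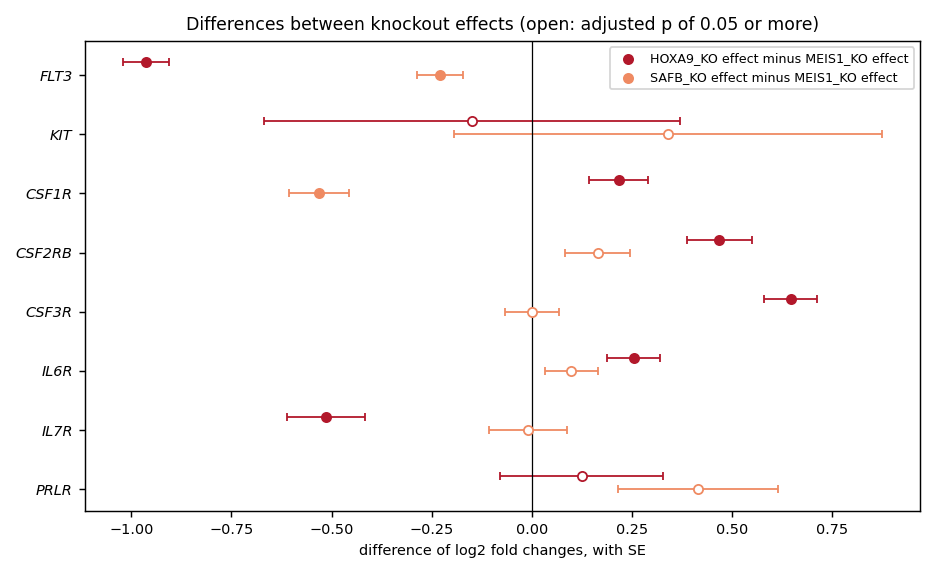
Difference between knockout effects for the 8 receptors measured in both experiments, as the log2 fold change of HOXA9_KO or SAFB_KO against NT minus that of MEIS1_KO against NT_MEIS1ex, with whiskers of 1 SE and filled points at an adjusted p under 0.05. FLT3 lies at −0.96 and −0.23, CSF1R at 0.22 and −0.53, and KIT has the widest whiskers because it rests on few counts.

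Per kilobase of exon, counting all annotated exons of a gene merged, the receptors spanned a wide range. That length was 4159 bases for FLT3, 6453 for IL6R, 8429 for CSF3R and 1710 for IL3RA, and the order depends on it. In CPM alone, IL6R stood above FLT3 in HOXA9_KO, at 364 against 321.5 CPM. Which transcripts these cells make was not tested. In NT the order was FLT3 (162 ± 2.12 CPM per kb), IL6R (43.2 ± 0.944), CSF3R (18.2 ± 0.926), CSF1R (5.44 ± 0.122), CSF2RB (4.28 ± 0.156), IL7R (2.60 ± 0.149), PRLR (0.218 ± 0.0303) and KIT (0.100 ± 0.0273; SD, n = 3 each), and no neighbours overlapped between libraries. HOXA9_KO kept that order with no overlap, and in SAFB_KO it was the same except that the ranges of CSF1R and CSF2RB overlapped. The distance from FLT3 to IL6R shrank most in HOXA9_KO. Per kilobase, FLT3 stood at 1.37 ± 0.0472 times the level of IL6R in HOXA9_KO, 2.54 ± 0.0326 times in SAFB_KO and 3.76 ± 0.0527 times in NT (SD, n = 3 each), with no overlap. The ratio was 1.86 ± 0.0373 in MEIS1_KO and 2.21 ± 0.229 in NT_MEIS1ex (SD, n = 4 each), which overlapped.

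The MEIS1 experiment added the alpha chains to the middle of that order. In MEIS1_KO, CSF3R stood at 21.0 ± 0.268 CPM per kb, above CSF1R (16.4 ± 0.851), IL3RA (16.3 ± 0.691) and CSF2RA (16.1 ± 0.631), 3 receptors whose ranges overlapped from neighbour to neighbour. CSF2RB (7.71 ± 0.469) and IL7R (7.38 ± 0.356) overlapped too. In NT_MEIS1ex, IL3RA (17.7 ± 1.19) and CSF3R (17.3 ± 0.697) overlapped, CSF2RA followed at 14.2 ± 0.249, and CSF1R (10.2 ± 0.236), CSF2RB (6.46 ± 0.134) and IL7R (3.98 ± 0.382) were apart. FLT3 and IL6R led and PRLR and KIT closed the order in both groups. Levels of different experiments were scaled apart, and their difference was not tested.

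**Figure D4:**
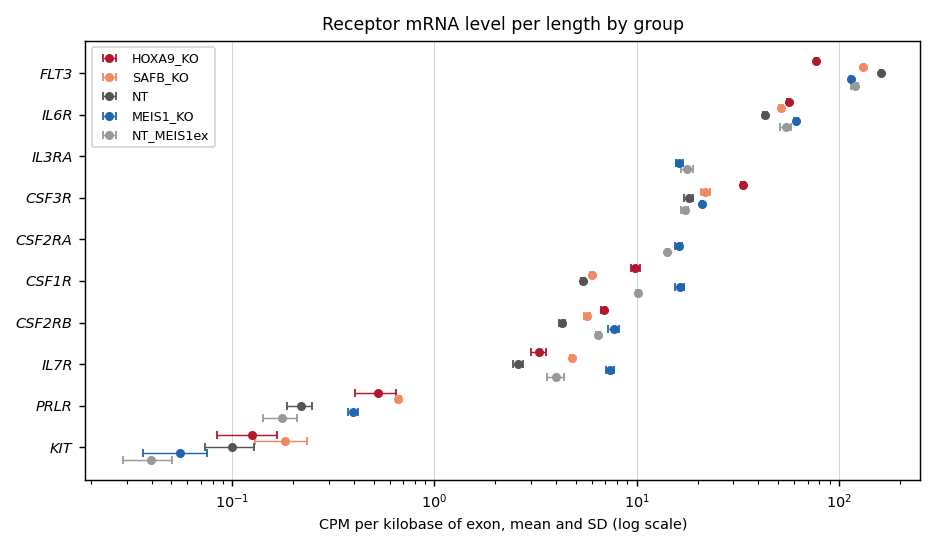
Mean level of each receptor per kilobase of exon by group, with the SD over libraries (n = 3 in HOXA9_KO, SAFB_KO and NT, n = 4 in MEIS1_KO and NT_MEIS1ex), on a log axis and ordered by NT_MEIS1ex. FLT3 leads in every group, 77.3 CPM per kb in HOXA9_KO against 162 in NT, and KIT is lowest. Groups in which a gene is listed at 0 are left out.

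The cells made little RNA for the ligands of these receptors. Of 14 ligand genes only KITLG, which encodes the ligand of KIT, averaged more than 1 CPM in any group. It averaged 3.68 ± 0.144 CPM in HOXA9_KO, 3.85 ± 0.285 CPM in SAFB_KO and 2.19 ± 0.561 CPM in NT (SD, n = 3 each), and was higher by 0.72 ± 0.16 in HOXA9_KO (adjusted p 1.2e-04) and by 0.80 ± 0.16 in SAFB_KO (adjusted p 5.0e-05). In the MEIS1 experiment KITLG averaged 5.09 ± 0.359 CPM in MEIS1_KO and 5.18 ± 0.591 CPM in NT_MEIS1ex. None of the other 13 passed 0.678 CPM in any library. CSF2 (GM-CSF) and IL3 had 0 counts in all 17 libraries, which allows 3 counts a library, or 0.0406 to 0.129 CPM, for counting error only. CSF1, the ligand of CSF1R, was the ligand called lower in HOXA9_KO and SAFB_KO, at 26 counts or fewer a library, and was named after its values were seen.

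The counts of called genes in the lists that follow stand beside those of all tested genes, of which 27.6% were higher and 29.9% lower in HOXA9_KO, 20.2% higher and 15.3% lower in SAFB_KO, and 4.97% higher and 3.84% lower in MEIS1_KO. Protein-coding scaling shifts every gene of a comparison alike, and of all calls under it 23.5% were higher in HOXA9_KO and 23.6% in SAFB_KO. Of 28 other cytokine receptors tested in the HOXA9 and SAFB experiment, 17 rose and 5 fell in HOXA9_KO, and 14 rose and 4 fell in SAFB_KO, with medians of 0.52 and 0.24. Under protein-coding scaling these counts were 14 and 9 in HOXA9_KO and 10 and 5 in SAFB_KO. TNFRSF1B, a TNF receptor, averaged 157 ± 3.54 CPM in HOXA9_KO, 84.7 ± 2.29 CPM in SAFB_KO and 45.4 ± 2.94 CPM in NT (SD, n = 3 each), rises of 1.80 ± 0.04 and 0.90 ± 0.04. IL13RA1, a chain of the IL13 receptor, rose by 1.43 ± 0.04 in HOXA9_KO and 0.82 ± 0.04 in SAFB_KO, and IL17RA, the shared IL17 receptor, by 0.97 ± 0.03 and 0.64 ± 0.03. The falls in HOXA9_KO, named after their values were seen, were those of IL2RA (−2.83), IL15RA (−1.53), IL2RG (−1.53), IL21R (−0.38) and EPOR (−0.30). In SAFB_KO they were IL2RA (−1.84), IL2RG (−1.02), IL15RA (−0.96) and IL12RB2 (−0.72), of which IL2RG was lost with no filter, DESeq2, limma-voom and the replicate term, and without either of NT replicates 1 and 2 or any SAFB_KO library (adjusted p up to 0.255). In MEIS1_KO 6 of 27 rose, led by IL10RA (0.64 ± 0.07, adjusted p 3.0e-05) and IL21R (0.29 ± 0.05, adjusted p 8.97e-04), and IL15RA alone fell, by 0.54 ± 0.09 (adjusted p 0.00101), with a list median of 0.10.

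Of 33 kinases, adaptors and STATs next to the receptors, 18 rose and 7 fell in HOXA9_KO and 15 rose and 5 fell in SAFB_KO, which were 12 and 15 and 6 and 13 under protein-coding scaling, where calls over all genes also shifted to lower. The medians of 0.20 and 0.10 became −0.05 and −0.04. FGR, a Src-family kinase of myeloid cells, averaged 65.0 ± 1.78 CPM in HOXA9_KO, 15.7 ± 0.832 CPM in SAFB_KO and 7.70 ± 0.554 CPM in NT (SD, n = 3 each), rises of 3.09 ± 0.06 and 1.03 ± 0.07. SYK, a kinase downstream of immune receptors, rose by 0.92 ± 0.03 and 0.37 ± 0.03, and PIK3R5, a regulatory subunit of PI3-kinase gamma, by 1.37 ± 0.05 and 0.57 ± 0.05. In MEIS1_KO the rises were those of PIK3R5 (0.41 ± 0.05, adjusted p 1.6e-04), STAT2 (0.34 ± 0.05, 3.9e-04), JAK2 (0.47 ± 0.07, 4.3e-04) and FGR (0.34), the 4 genes called of 33, where 8.81% of all tested genes were called. STAT2 went the other way in the first experiment, lower by 0.48 in HOXA9_KO and 0.56 in SAFB_KO. ADAM10 and ADAM17, proteases that shed receptors from the surface, rose by 0.45 and 0.31 in HOXA9_KO and by 0.27 and 0.15 in SAFB_KO, but under protein-coding scaling ADAM10 alone was called in each (ADAM17, adjusted p 0.239 and 0.920). Neither was called in MEIS1_KO.

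Of 26 negative regulators tested, 13 rose and 5 fell in HOXA9_KO and 6 rose and 4 fell in SAFB_KO, where 57.5% and 35.5% of all tested genes were called. Under protein-coding scaling, which shifts all genes alike, these were 5 and 12 and 2 and 11. The medians were 0.14 and 0.03 by TMM. SOCS2 and CISH, feedback inhibitors that STAT5 switches on, fell in both. SOCS2 lay at 32.1, 31.5 and 30.6 CPM in HOXA9_KO, 68.9, 65.9 and 69.5 CPM in SAFB_KO, and 103.1, 101.7 and 109 CPM in NT with no overlap, a fall of 1.74 ± 0.04 (adjusted p 2.2e-35) and of 0.62 ± 0.04 (adjusted p 1.1e-17). CISH lay at 37.2, 35.4 and 38.0 CPM in HOXA9_KO, 40.8, 44.4 and 47.2 CPM in SAFB_KO, and 66.8, 58.9 and 65.5 CPM in NT. Its falls were 0.79 ± 0.05 and 0.53 ± 0.05. In the MEIS1 experiment SOCS2 averaged 21.9 ± 0.508 CPM in MEIS1_KO and 24.4 ± 1.65 CPM in NT_MEIS1ex (−0.15 ± 0.06, adjusted p 0.153), and CISH averaged 181 ± 8.54 CPM and 179 ± 9.99 CPM (SD, n = 4 each; 0.01 ± 0.05, adjusted p 0.921). The other falls in HOXA9_KO, SOCS1 (−1.21), SPRED1 (−0.33) and INPP5D (−0.29), were named after their values were seen, and SPRED1 was lost without NT replicate 1 or HOXA9_KO replicate 2 (adjusted p up to 0.118). PTPRJ, a receptor phosphatase, rose by 0.84 ± 0.05 in HOXA9_KO and by 0.27 ± 0.06 in MEIS1_KO (adjusted p 0.00499), and CBL, a ubiquitin ligase that removes receptor kinases, by 0.23 ± 0.03 in SAFB_KO. CBL (0.21) and PIAS1 (0.21) were the other genes called among 27 in MEIS1_KO. CBL was lost without MEIS1_KO replicate 1, 2 or 3 or NT_MEIS1ex replicate 1, 3 or 4 (adjusted p up to 0.131), and PIAS1 without any MEIS1_KO library or NT_MEIS1ex replicate 3 or 4 (up to 0.113).

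Of 21 genes that respond to STAT5 or MAPK signals, 9 were higher and 9 lower in HOXA9_KO, beside 27.6% and 29.9% over all genes. In SAFB_KO 5 were higher and 7 lower, beside 20.2% and 15.3% over all genes. Under protein-coding scaling these counts were 7 and 12 in HOXA9_KO and 4 and 11 in SAFB_KO. SOCS2 and CISH belong to this list too. PIM1, a survival kinase induced by STAT5, lay at 204, 200.3 and 210.1 CPM in HOXA9_KO, 221, 212 and 232 CPM in SAFB_KO and 283, 299 and 317 CPM in NT, and was lower in SAFB_KO by 0.43 ± 0.04 (adjusted p 1.4e-13) and in HOXA9_KO by 0.55 ± 0.04. FOS, an immediate-early gene, rose by 0.76 ± 0.04 in HOXA9_KO and 0.67 ± 0.04 in SAFB_KO. Other called rises of the list, named after their values were seen, include DUSP6 (0.88), BCL6 (0.70), PIM3 (0.51), BCL2L1 (0.51) and MCL1 (0.26) in HOXA9_KO. In SAFB_KO they include DUSP6 (0.53), BCL6 (0.44) and MCL1 (0.16). MCL1 was not called under protein-coding scaling in either. ID1, an inhibitor of basic helix-loop-helix factors, averaged 15.9 ± 1.89 CPM in HOXA9_KO and 1.82 ± 0.233 CPM in NT (SD, n = 3 each), a rise of 3.12 ± 0.13, and 1.76 CPM in SAFB_KO. In MEIS1_KO BCL6 rose (0.37 ± 0.07, adjusted p 0.00439) and 5 of 22 fell, ETV4 by 0.36 ± 0.07 (adjusted p 0.00169), MYC by 0.24 ± 0.04 (adjusted p 0.00265), CCND1 by 0.66, CCND2 by 0.31 and ETV5 by 0.20. BCL6 is a repressor and MYC a growth regulator, and the last 3 falls were named after their values were seen. ETV5 was lost without MEIS1_KO replicate 1 or 3 or NT_MEIS1ex replicate 3 or 4 (adjusted p up to 0.0661).

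Among 12 transcription factors known to act on receptor genes, 6 rose and 6 fell in HOXA9_KO (5 and 7 under protein-coding scaling). The falls include HOXA9 itself, the gene knocked out. SPI1 (PU.1), a myeloid master regulator of CSF1R and CSF3R, rose by 1.27 ± 0.04 in HOXA9_KO and 0.51 ± 0.04 in SAFB_KO. CEBPA rose by 0.92 and 0.35 ± 0.04, and IRF8 by 0.49 and 0.41 ± 0.03. PBX3, a partner of HOX proteins, fell by 1.04 ± 0.04 in HOXA9_KO. In SAFB_KO the 3 rises were SPI1, IRF8 and CEBPA and the 4 falls MEIS1, PBX3, GATA2 and RUNX1, of which GATA2 was lost with DESeq2 and without NT replicate 2 or SAFB_KO replicate 2 (adjusted p up to 0.187). In MEIS1_KO the 2 genes called were MEIS1 itself and GATA2, which fell (GATA2 −0.71 ± 0.08, adjusted p 3.3e-05).

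**Figure D5:**
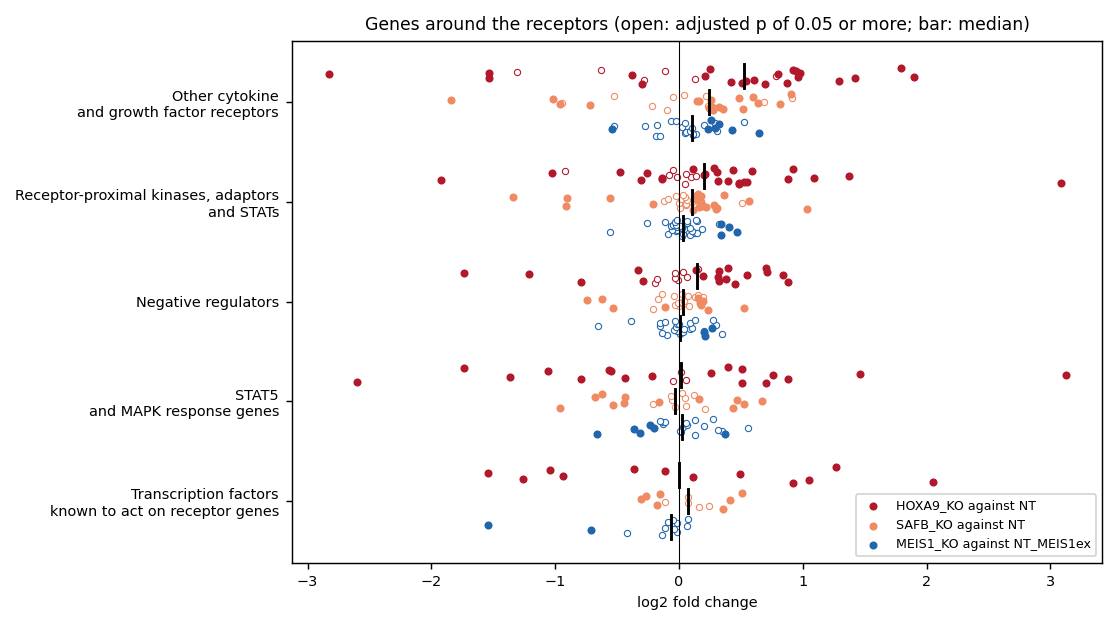
Log2 fold change of every tested gene in 5 lists of genes around the receptors, for HOXA9_KO and SAFB_KO against NT and MEIS1_KO against NT_MEIS1ex. Filled points are called at an adjusted p under 0.05, open points are not, and the black bar is the list median, 0.52, 0.24 and 0.10 for the other receptors. Points spread widest in HOXA9_KO, both ways in most lists.

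The genes whose level followed each receptor most closely were found over the 17 libraries, as Pearson's r of log2 CPM relative to the controls of the same experiment, among 8752 genes. These values share libraries and groups and are a description. FLT3 was followed by SENP6, a SUMO protease (r = 0.997), NREP (0.996) and the fatty acid desaturase SCD (0.995). CSF3R was followed by the glucose transporter SLC2A6 (0.990), FGD3 (0.990) and properdin, CFP (0.987), and CSF2RB by MVP, the vault protein (0.984), OTULINL (0.983) and thrombomodulin, THBD (0.982). CSF1R was followed by USP48 (0.969), SLPI, a leukocyte protease inhibitor (0.963), and SAT1 (0.945). IL6R was followed by SPECC1 (0.963), SIRPB2 (0.962) and ACSM3 (0.956). IL7R had the loosest followers, FLVCR2 (0.941), NDRG2 (0.894) and WSB1 (0.888).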

How the data were processed

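The deposited values were whole-number read counts per gene, made by the authors with HTSeq 1.99.2 after STAR 2.7.10a on hg38, with Trim Galore and bedtools also listed, per the submitters' processing notes. Neither the counting's strand setting nor its annotation release is given in the sources used here. Per the labels, libraries were directional and depleted of ribosomal RNA. Names and GRCh38 coordinates came from GENCODE 29, where 57937 of 58278 identifiers were found, and no receptor shares exon sequence with another gene. Counts were fitted with edgeR 4.0.16 (R 4.3.3), filterByExpr (10 counts, 15 in total), TMM and the robust quasi-likelihood test, the HOXA9 and SAFB experiment (9 libraries), the MEIS1 experiment (8) and, for differences of effects, all 17 being separate fits. P-values were adjusted by Benjamini-Hochberg over all tested genes. The biological coefficient of variation was 4.63% in the first fit and 6.75% in the second. The SE is the log2 change over the root of F. Alternatives were RLE and protein-coding scaling, other filters, DESeq2 1.42.0, limma 3.58.1 voom, a replicate term, only the groups compared, X and Y copies added, and leaving out each library. The tests were tried on simulated data. No libraries agreed within sampling noise. Up to 3 called genes a list and comparison (at least 2 CPM, smallest p) and the 3 most similar genes (at least 10 CPM) were named. Receptors and lists were chosen with earlier results of these data known.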

Additional observations from a re-analysis of the deposited data

Results flagged for a closer look

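In groups of 4 libraries, a value was singled out when the gap to its nearest neighbour exceeded Dixon's 95% critical share of the group's range. Of 20 groups examined 2 were, and chance singles out about 1 in 20. FLT3 in NT_MEIS1ex had a lowest library of 466.4 CPM, below the other 3 at 507 to 512 CPM, a gap of 0.895 of the range. CSF3R in MEIS1_KO had a lowest library of 173.6 CPM, below the other 3 at 178 CPM, a gap of 0.849 of a narrow range.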

How the results depend on the processing

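Of 240 counts of called receptors under the alternatives, 239 stayed within 1.5 times the reported one. That margin passes over lost calls. KIT and CSF1R in SAFB_KO were both lost under protein-coding scaling and without NT replicate 2 or SAFB_KO replicate 1 or 3. CSF2RA and IL6R in MEIS1_KO were both lost without MEIS1_KO replicate 2 or 3 or NT_MEIS1ex replicate 3. The count outside the margin came under protein-coding scaling, where 1 receptor instead of 4 had a higher effect in HOXA9_KO than in MEIS1_KO. That scaling also turned these differences round: for HOXA9_KO minus MEIS1_KO, CSF1R (−0.10), IL6R (−0.066) and PRLR (−0.20), and for SAFB_KO minus MEIS1_KO, CSF2RB (−0.0090), CSF3R (−0.17, adjusted p 0.0488) and IL6R (−0.076). The other reversals were of differences near 0 that were not called. Leaving out 1 library, HOXA9_KO minus MEIS1_KO ranged over −0.43 to 0.019 for KIT and −0.076 to 0.27 for PRLR, and SAFB_KO minus MEIS1_KO over −0.032 to 0.052 for CSF3R and −0.055 to 0.051 for IL7R. For SAFB_KO minus MEIS1_KO, CSF3R was −0.073 at a mean of 2 CPM, and IL7R was 0.019 with RLE factors, 0.0037 with no filter and 0.019 with DESeq2. The causes were not tested.

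Replicate numbers did not pair the libraries, with correlations of same-numbered deviations of −0.39 to 0.17. With the replicate block CSF2RA in MEIS1_KO was 0.18 with an adjusted p of 0.0570, so 6 instead of 7 receptors were higher there, and CSF3R in SAFB_KO minus MEIS1_KO was −0.0014. The block changed no other call among the 10 receptors. Of the other cytokine receptors it gave 3 instead of 4 lower in SAFB_KO, where IL2RG was lost, and 2 instead of 1 lower in MEIS1_KO, and of the STAT5 and MAPK genes 4 instead of 1 higher in MEIS1_KO. Over all genes, 1387 were called in MEIS1_KO, but 873, 751 and 884 without MEIS1_KO replicate 2, MEIS1_KO replicate 3 and NT_MEIS1ex replicate 4. Low counts limit KIT and PRLR, and the region's zeros hide CSF2RA and IL3RA in the HOXA9 and SAFB experiment.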
